A study of Mus musculus with 32 samples.

Results

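The genes described here were 35 genes of the B lineage, chosen by symbol from the raw count table as members of B cell receptor signalling or markers of early B cells. All 35 were among the 24421 genes of the table and among the 14154 genes that passed the filter on low counts, and no member had its highest library under 98 counts. Bone marrow of female C57BL/6 mice at 10 weeks (Young) or 20 months (Aged) was sorted by flow cytometry into 8 fractions: hematopoietic stem cells (HSCs), the multipotent progenitors MPP1 to MPP4, the committed progenitors of the lymphoid branch (CLPs), those of granulocytes and macrophages (GMPs) and those of megakaryocytes and red cells (MEPs). RNA sequencing gave 32 libraries, 2 for every one of 16 groups. The labels name no transgene or treatment, and part of the methods describes marrow pooled within an age, so the spread between the 2 libraries of a group may be technical and may not cover differences between mice.

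As the gates are described, sorted cells other than CLPs lacked the interleukin-7 receptor and a panel of lineage antigens. That panel included the B cell form of CD45. For CLPs the panel left out the interleukin-7 receptor, for which the cells were stained apart, together with c-Kit, Sca-1 and Flt3. Total counts were 11237384 to 17723245 per library. Levels are given as CPM, counts scaled to a common library total, with the SD over n = 2 libraries. A count of 0 allows up to 3 counts, 0.169 to 0.267 CPM depending on the library, which covers counting error only. Differences are log2 fold changes with their SE from the quasi-likelihood F-test of edgeR, fitted on all 32 libraries, and a member is called higher or lower at a Benjamini-Hochberg adjusted p under 0.01 over all 14154 genes.

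B cells arise in the marrow from lymphoid progenitors through pro-B and pre-B stages. The B cell receptor pairs an immunoglobulin with the signalling chains Cd79a and Cd79b, and engagement of the receptor activates Lyn, Blk and Syk, the adaptor Blnk, and Btk and Plcg2 downstream. Inhibitory receptors such as Cd22, Cd72 and Siglecg recruit phosphatases that restrain this signal, and transcription factors such as Lef1, Pou2af1 and Spib act during B cell development. Several members also work outside B cells: Syk, Lyn, Btk and Plcg2 signal in myeloid cells, Myb and Sox4 act in progenitors, and Spib is also known as a regulator of plasmacytoid dendritic cells.

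Promoter sequence is a feature of these genes that their choice did not use. RefSeq promoter windows on GRCm38.p6, the build of the deposited data (mm10), matched 25 of the 35 members with 34 windows. The 250 bases before each start were searched on both strands for 4 motifs. The E-box CAGGTG, a motif of the E proteins, was in 14 of 34 member windows (41.2%) and in 17.2% of all 32851 windows. The other motifs were rarer. The octamer ATGCAAAT, read by the factors that Pou2af1 binds, was in the windows of Blnk and Cnr2 and in 1.6% of all windows. The EBF palindrome TCCCNNGGGA was in that of Cd22 and in 0.779% of all windows, and GAGGAAGT, a core of PU.1 and Spib sites, was in those of Cd37 and Cd72 and in 2.44%. The motifs searched did not overlap each other in these windows, and a match is a description of letters, not a bound site. Promoters of 5 members with different age patterns follow, with a CAGGTG match on either strand in capitals and bases that GENCODE M21 places inside the gene left out. Cd79a (chr7:24897247-24897380, plus strand) was called lower in aged MPP3, GMPs, MEPs and CLPs. Its MEP and CLP calls held with each library left out. Bank1 (chr3:136326067-136326316, minus) was called lower in aged HSCs, MPP3, MPP4 and CLPs, and none of these calls held in that way. Tnfrsf13c (chr15:82224381-82224630, minus) was called lower in every fraction but MPP2, and only its HSC and MEP calls held. Pik3ap1 (chr19:41385103-41385352, minus) was called lower in aged MPPs and higher in aged CLPs, calls that did not hold with each library left out. Its lower call in aged MEPs held. Cd53 (chr3:106790150-106790399, minus) was called higher in HSCs and MPP1 to MPP3 and lower in GMPs and MEPs. Of its calls only that in MPP3 did not hold. The Cd53 window held none of the 4 motifs.
Cd79a: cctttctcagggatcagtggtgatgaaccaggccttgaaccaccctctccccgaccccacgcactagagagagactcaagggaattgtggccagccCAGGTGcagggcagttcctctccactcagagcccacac
Bank1: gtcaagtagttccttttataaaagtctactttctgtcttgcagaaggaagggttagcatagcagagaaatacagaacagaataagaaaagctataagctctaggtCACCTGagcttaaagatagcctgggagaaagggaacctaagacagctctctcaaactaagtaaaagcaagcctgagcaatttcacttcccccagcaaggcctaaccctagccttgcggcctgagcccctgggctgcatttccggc
Tnfrsf13c: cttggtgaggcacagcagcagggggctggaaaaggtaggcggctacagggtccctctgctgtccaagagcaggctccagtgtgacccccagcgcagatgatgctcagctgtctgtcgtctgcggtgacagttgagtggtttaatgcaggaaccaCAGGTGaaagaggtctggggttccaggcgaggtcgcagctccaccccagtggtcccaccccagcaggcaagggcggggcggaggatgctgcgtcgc
Pik3ap1: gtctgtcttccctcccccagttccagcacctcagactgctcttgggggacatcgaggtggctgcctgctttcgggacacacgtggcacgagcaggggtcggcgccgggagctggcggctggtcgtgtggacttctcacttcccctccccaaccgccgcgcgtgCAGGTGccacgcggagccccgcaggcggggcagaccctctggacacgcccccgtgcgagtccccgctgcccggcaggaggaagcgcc
Cd53: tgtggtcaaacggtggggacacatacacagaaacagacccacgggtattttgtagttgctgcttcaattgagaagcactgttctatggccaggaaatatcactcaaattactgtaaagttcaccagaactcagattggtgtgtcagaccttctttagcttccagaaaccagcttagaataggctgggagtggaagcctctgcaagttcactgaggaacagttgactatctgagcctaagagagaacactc

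The label was checked against the levels of the members in every fraction. CLPs held the highest group mean of 29 of 35 members, 23 in young and 6 in aged CLPs. The other 6 peaked elsewhere: Cd24a and Cnr2 in MEPs, Sox4, Lax1 and Plcg2 in MPP4 and Myb in GMPs. All 35 members had a mean of at least 1 CPM in young and in aged CLPs. In young HSCs 20 members did, against 12 in aged MEPs. The name therefore describes the CLP libraries, while 13 to 17 members per group also had a mean of at least 10 CPM in HSCs and the MPP fractions.

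**Figure D1:**
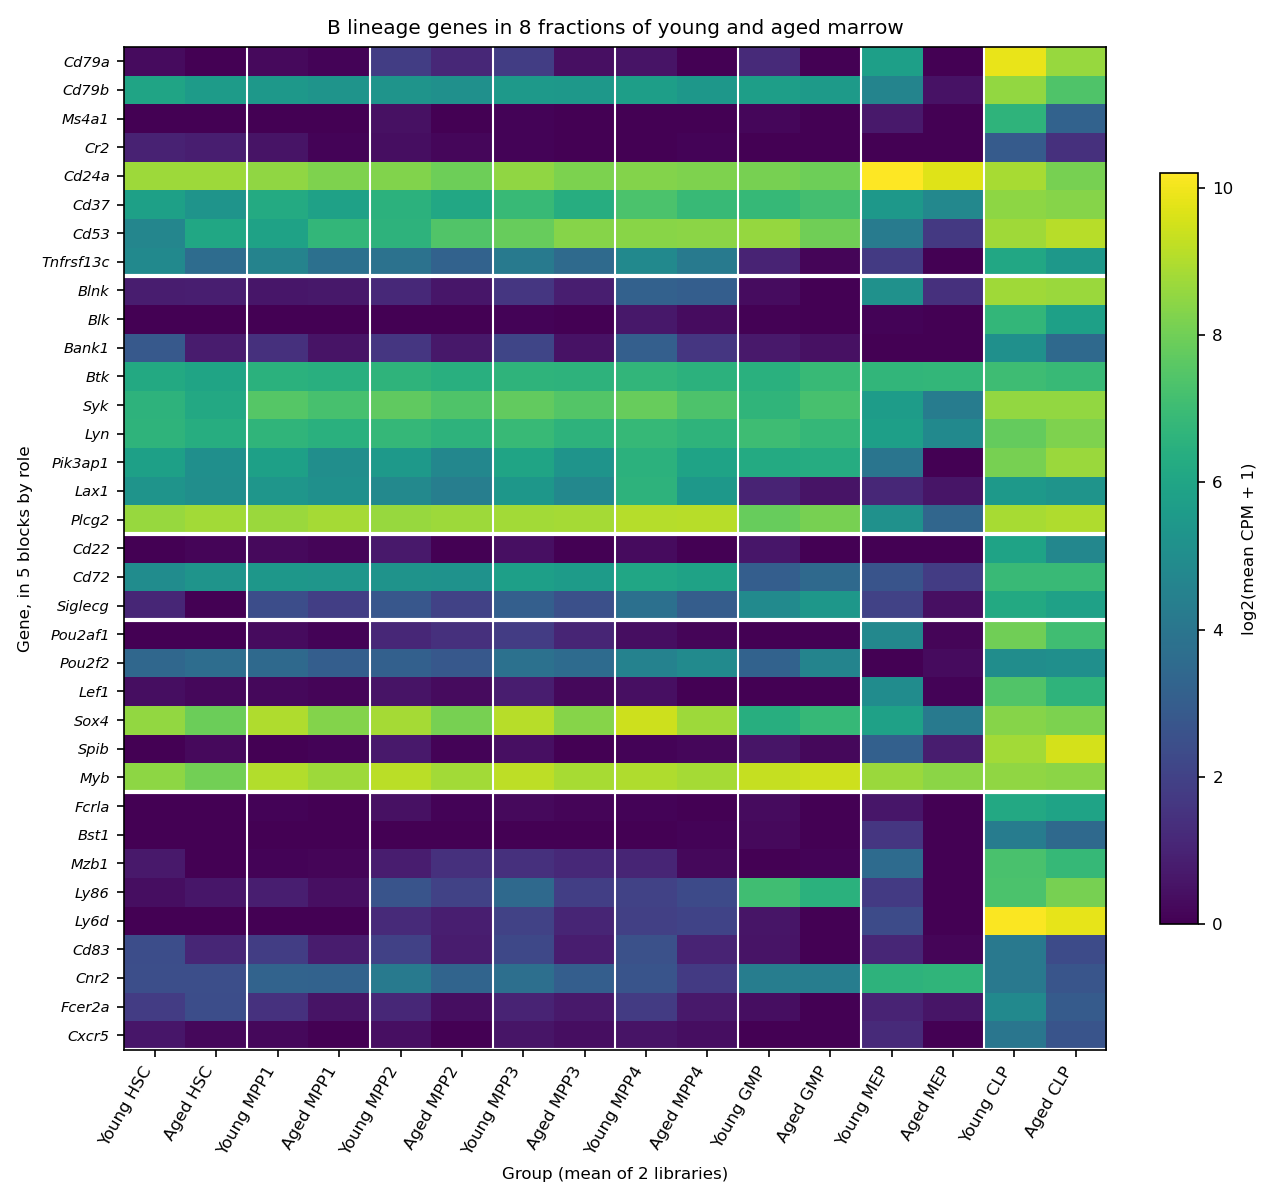
Heat map of log2(mean CPM + 1) for the 35 genes (rows, in 5 blocks by role from receptors at the top to surface and secreted genes at the bottom) in the 16 groups (columns, young beside aged, mean of 2 libraries). The last 2 columns, young and aged CLPs, are the brightest for most rows, and Cd79a stands at 53.1 CPM in young MEPs beside 0 CPM in aged MEPs.

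Among genes of the receptor complex and its co-receptors, Cd79a (chromosome 7, 24897381 to 24902197) had 928 and 956 CPM in the young CLP libraries and at most 2.73 CPM in any HSC, MPP or GMP library. Cd79b (chromosome 11, 106311341 to 106314762), its partner chain, had 366 and 375 CPM in young CLPs and 37.7 to 61.8 CPM in young HSCs and MPPs. So the 2 chains that work as a pair differed in where they were detected. Ms4a1, which encodes the B cell antigen CD20, had 99.4 and 95.8 CPM in young CLPs and at most 0.482 CPM in any HSC or MPP library. Cr2, the complement receptor of mature B cells, was low, with 5.75 and 7.55 CPM in young CLPs. The other 4 were detected more broadly. The tetraspanins Cd37 and Cd53 had 361 and 357 CPM and 421 and 443 CPM in young CLPs, and Cd24a, the heat-stable antigen used to stage B cell precursors, had 465 and 461 CPM there against 1197 and 1168 CPM in young MEPs. Tnfrsf13c, the receptor for the survival factor BAFF, had 70.8 and 67.6 CPM in young CLPs and 13.2 to 29.2 CPM in young HSCs and MPPs.

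Of the cytoplasmic signalling genes, those shared with other blood cells were present throughout. Plcg2, the phospholipase of the pathway, had 477 and 451 CPM in young CLPs and 378 to 574 CPM in young HSCs and MPPs. Syk had 376 and 383 CPM in young CLPs, Lyn 221 and 222 CPM and Btk 133 and 127 CPM, and each was at 64.6 CPM or more in every young HSC and MPP library. The adaptor Pik3ap1 had 269 and 279 CPM in young CLPs and 44.1 to 93.6 CPM in young HSCs and MPPs. Blnk and Blk were low in young HSCs and MPPs instead, though Blnk had a mean of 34.6 CPM in young MEPs. Blnk had 441 and 415 CPM in young CLPs, 7.53 and 8.58 CPM in young MPP4 and at most 2.38 CPM in young HSCs and MPP1 to MPP3. Blk had 106 and 107 CPM in young CLPs, 0.594 and 0.561 CPM in young MPP4 and 0 in both young HSC libraries. The scaffold Bank1 had 36.4 and 31.1 CPM in young CLPs. Lax1, a negative adaptor of lymphocyte receptors, was highest in young MPP4 with 96.0 and 96.4 CPM, against 45.4 and 42.1 CPM in young CLPs.

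The 3 inhibitory receptors differed in the same way. Cd72 had 118 and 123 CPM in young CLPs and 26.3 to 68.9 CPM in young HSCs and MPPs, Siglecg 69.2 and 75.4 CPM in young CLPs and 14.5 and 10.6 CPM in young MPP4, and Cd22 65.2 and 54.2 CPM in young CLPs and at most 0.681 CPM in young HSCs and MPPs. Among transcription genes, Spib had 450 and 428 CPM in young CLPs, the octamer co-activator Pou2af1 264 and 247 CPM and Lef1 173 and 176 CPM, all at most 2.82 CPM in young HSCs and MPPs. Pou2f2, which encodes Oct-2, had 30.1 and 31.4 CPM in young CLPs and 7.41 to 24.6 CPM in young HSCs and MPPs. Sox4 and Myb ran the other way, with 330 and 327 CPM of Sox4 in young CLPs beside 713 and 670 CPM in young MPP4, and 373 and 364 CPM of Myb beside 527 and 501 CPM.

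Ly6d, a surface marker that separates B-biased from other lymphoid progenitors, was the most abundant member in young CLPs at 1131 and 1141 CPM. It also ranked first per length, at 1527 CPM per kilobase of annotated exon, ahead of Cd79a (647), Cd79b (259) and Cd53 (248). Of the other surface and secreted genes, Ly86, the partner of the Toll-like receptor homolog RP105, had 162 and 158 CPM in young CLPs and 134 and 135 CPM in young GMPs, Mzb1, a chaperone of antibody-secreting cells, 151 and 153 CPM in young CLPs, and Fcrla 65.2 and 74.5 CPM. The remaining 5 were at 14.3 to 28.4 CPM in young CLPs: Bst1, Cd83, the cannabinoid receptor Cnr2, the low-affinity IgE receptor Fcer2a and the chemokine receptor Cxcr5. Cnr2 had 97.8 and 96.1 CPM in young MEPs.

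The order of the fractions along the lymphoid branch was tested in young libraries. Between MPP4, the lymphoid-biased progenitor, and HSCs, 16 members were higher (background over all genes 18.5% higher) and 1 was lower (16.1%). Cd53 showed 334 ± 32.3 CPM in MPP4 against 24.5 ± 3.23 CPM in HSCs (log2 fold change 3.80, SE 0.14, adjusted p = 3.59e-15), Siglecg 12.5 ± 2.74 against 1.14 ± 0.0213 CPM (3.49) and Blnk 8.05 ± 0.743 against 0.787 ± 0.0186 CPM (3.37). Ly6d went from 0 and 0 to 36 and 40 counts, at least 11.7-fold higher, and Blk from 0 and 0 to 9 and 7 counts, at least 2.42-fold higher. The call of Blk ended without any 1 of the 4 libraries (adjusted p up to 0.0310). The one lower member was Cd24a (-0.36, SE 0.06). The others called higher were Ly86, Cd37, Lax1, Syk, Pou2f2, Cd72, Sox4, Pik3ap1, Myb, Btk and Plcg2, with log2 fold changes of 3.23 for Ly86 and between 0.51 and 1.53 for the rest.

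Against young MPP3, which shares the MPP4 libraries with the comparison above, 8 members were higher in MPP4 (background 2.18%) and 4 lower (3.60%). Lax1 (41.9 and 41.6 CPM in MPP3, log2 fold change 1.21) and Blnk (1.98) were higher, and Pou2af1 (-3.06), Ly86 (-1.77), Cd79a (-2.37) and Cnr2 (-1.24) were lower. The 2 libraries of young MPP4 held 14 and 0 counts of Cd79a beside 36 and 32 in MPP3, and the value of -2.37 became -8.09 without young MPP4 replicate 1 and -1.50 without replicate 2. The other members higher in MPP4 were Pou2f2, Siglecg, Tnfrsf13c, Cd53, Cd37 and Plcg2, between 0.29 and 0.75. Leaving out each library in turn kept 3 to 7 of the 12 calls. Those of Pou2af1, Ly86 and Lax1 held in all 4 fits, and that of Blnk ended without young MPP3 replicate 1 (adjusted p = 0.0144). Those of Cnr2 and Tnfrsf13c ended without any 1 library, those of Cd79a and Cd53 without either MPP3 library or MPP4 replicate 2, those of Pou2f2 and Siglecg without either MPP3 library or MPP4 replicate 1, that of Cd37 without MPP3 replicate 1 or MPP4 replicate 2 and that of Plcg2 without MPP3 or MPP4 replicate 1 (adjusted p up to 0.171).

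From young MPP4 to young CLPs 31 members were higher (background 21.3%) and 3 lower (20.5%), and Plcg2 was not called (-0.08, SE 0.07, adjusted p = 0.362). In aged cells 28 were higher (18.9%) and 2 lower (21.6%). In young cells Spib rose from 2 and 0 counts to 450 and 428 CPM, at least 2001-fold, and Ms4a1 from 0 counts, at least 445-fold. Cd79a, with 14 and 0 counts in MPP4, had a log2 fold change of 10.99 (SE 0.32), or 16.69 without young MPP4 replicate 1. The log2 fold change was 9.89 (SE 0.30) for Pou2af1, 9.03 (SE 0.58) for Lef1, 8.83 (SE 0.19) for Ly6d, 7.65 (SE 0.39) for Blk, 7.26 (SE 0.34) for Mzb1, 5.91 (SE 0.19) for Ly86 and 5.89 (SE 0.24) for Blnk. Sox4 (-0.92, SE 0.10), Lax1 (-0.98, SE 0.18) and Myb (-0.33, SE 0.08) fell. Cd24a was higher in young CLPs than in young MPP4 (0.72, SE 0.06) but not in the aged pair (-0.05, SE 0.06, adjusted p = 0.515), and Lax1 was lower in the young pair but not in the aged one (-0.07, SE 0.19, adjusted p = 0.808). The difference between the young and the aged step was not itself tested. In both pairs DESeq2 gave no call for Cd22, Ms4a1 and Fcrla (adjusted p of 0.0142 to 0.340). Leaving out 1 library ended 4 calls in the young pair: Cd83 without any 1, Pou2f2 without replicate 2 of either fraction, and Cd53 and Myb without MPP4 replicate 1 or CLP replicate 2 (adjusted p up to 0.0367). In the aged pair it ended 6: Btk and Cnr2 without replicate 2 of either fraction, Sox4 and Myb without MPP4 replicate 2 or CLP replicate 1, Cd83 without either MPP4 library or CLP replicate 2, and Cxcr5 without MPP4 replicate 1 (adjusted p up to 0.110). Without aged CLP replicate 2 the Cnr2 value was 0.85 in place of 1.32, without aged CLP replicate 1 the Myb value was -0.21 in place of -0.32, and without aged MPP4 replicate 2 the Cxcr5 value was 9.26 in place of 4.21.

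In CLPs the age comparison asked whether the lymphoid progenitor keeps its B cell program. Of the 35 members 9 were lower in aged CLPs (background 4.73% of all genes) and 3 were higher (5.71%), and the median log2 fold change was -0.35 over the members and 0 over all genes. The 9 lower members were Ms4a1, Cd83, Bank1, Cnr2, Cd79a, Cd79b, Pou2af1, Cd24a and Tnfrsf13c, 5 of the 8 receptor genes among them. The 3 higher members were Ly86, Pik3ap1 and Lyn. Lyn also signals in myeloid cells, as do Syk, Btk and Plcg2, which were not called. In bulk libraries, fewer cells of a type in the fraction and less RNA per cell cannot be told apart.

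Cd79a was at 928 and 956 CPM in young and 382 and 400 CPM in aged CLPs, and the groups were apart by far more than the gap within either (-1.25, SE 0.18, adjusted p = 9.40e-05). Cd79b was at 366 and 375 CPM in young and at 169 and 168 CPM in aged CLPs (-1.12, SE 0.15, adjusted p = 2.38e-05). Both signalling chains of the receptor were therefore lower. Cd24a fell from 465 and 461 CPM to 248 and 302 CPM (-0.74, SE 0.06, adjusted p = 6.85e-08). The calls of these 3 held with each CLP library left out in turn, but that of Cd24a ended when only CLP libraries were fitted (adjusted p = 0.0150). Ms4a1 had 1263 and 1243 counts in young and 88 and 146 in aged CLPs, the largest fall among the 12 called members (-3.53, SE 0.58, adjusted p = 0.00151). No library of one age reached the other, yet DESeq2 gave an adjusted p of 0.843 for the same difference and the cause was not tested. Pou2af1 fell from 264 and 247 CPM to 125 and 144 CPM (-0.91, SE 0.16, adjusted p = 0.000819). The calls of Ms4a1 and Pou2af1 ended without young CLP replicate 1, young CLP replicate 2 or aged CLP replicate 1, with adjusted p up to 0.0282 and 0.0231.

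The other 4 fell from lower levels. Bank1 went from 36.4 and 31.1 CPM to 9.78 and 10.6 CPM (-1.71, SE 0.41, adjusted p = 0.00623) and Cd83, an activation marker, from 16.7 and 15.9 CPM to 3.07 and 5.08 CPM (-1.99, SE 0.51, adjusted p = 0.00897). Cnr2 went from 18.1 and 14.4 CPM to 3.85 and 7.08 CPM (-1.56, SE 0.29, adjusted p = 0.000595) and Tnfrsf13c from 70.8 and 67.6 CPM to 41.3 and 43.3 CPM (-0.69, SE 0.15, adjusted p = 0.00237). In each of the 4 the ages did not overlap. The calls of Bank1, Cd83 and Tnfrsf13c ended without any 1 of the 4 CLP libraries (adjusted p up to 0.0658, 0.121 and 0.0314), and that of Cnr2 without young or aged CLP replicate 1 (0.0275).

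The 3 members that rose had their 2 aged libraries further apart than their young ones. Ly86 had 162 and 158 CPM in young and 310 and 245 CPM in aged CLPs (0.82, SE 0.14, adjusted p = 0.000276), Pik3ap1 269 and 279 CPM against 471 and 332 CPM (0.58, SE 0.15, adjusted p = 0.00964), and Lyn 221 and 222 CPM against 332 and 264 CPM (0.45, SE 0.09, adjusted p = 0.00147). In all 3, aged CLP replicate 1 was the higher library. Without it the values were 0.60, 0.27 and 0.24 and no call remained (adjusted p = 0.0176, 0.325 and 0.0928), and the calls of Pik3ap1 and Lyn also ended without either young library. Spib, from 450 and 428 CPM to 866 and 652 CPM, showed the same order of libraries but did not pass the test (0.81, SE 0.23, adjusted p = 0.0171). The fit of the CLP libraries alone also ended the calls of Lyn, Pik3ap1, Ly86, Cd83, Cnr2 and Tnfrsf13c (adjusted p of 0.0112 to 0.0979).

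**Figure D2:**
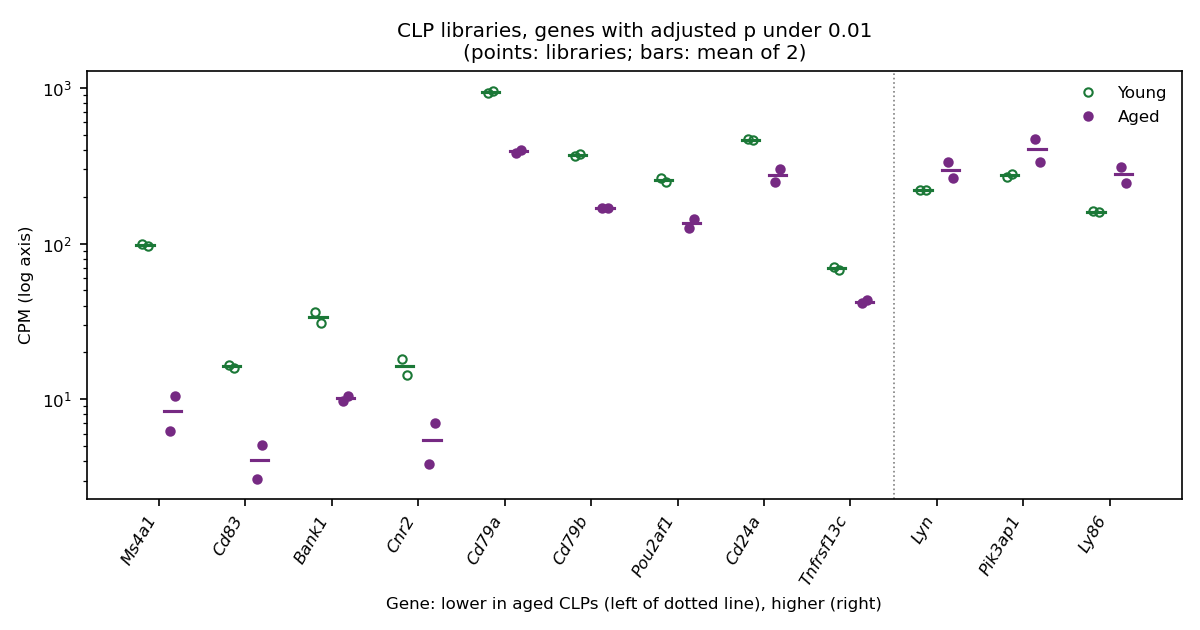
CPM (log axis) in each CLP library for the 12 genes that passed the test between ages, open green points young, filled purple points aged, bars at the mean of 2 libraries. To the left of the dotted line both aged libraries lie below both young ones, widest for Ms4a1 (97.6 against 8.36 CPM), and to the right Lyn, Pik3ap1 and Ly86 lie above them.

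The remaining 23 members were not called in CLPs. Several had ages that did not overlap: Fcer2a (28.4 and 26.4 against 4.71 and 8.58 CPM, -2.03, SE 0.57, adjusted p = 0.0163), Blk (106 and 107 against 48.4 and 61.6 CPM, -0.94, SE 0.26, adjusted p = 0.0231), Cd53 (0.39, SE 0.12, adjusted p = 0.0270) and Lef1 (173 and 176 against 97.2 and 98.3 CPM, -0.82, SE 0.33, adjusted p = 0.0977). Cd22 (-1.19, SE 0.57), Cr2 (-2.01, SE 0.89), Cxcr5 (-1.50, SE 0.67) and Bst1 (-0.83, SE 0.53) were also at lower values with wide errors. The most abundant member, Ly6d, was at 1131 and 1141 CPM in young and 866 and 934 CPM in aged CLPs (-0.32, SE 0.12, adjusted p = 0.0834). Blnk (441 and 415 against 430 and 390 CPM, -0.04, SE 0.18), Syk (0.02, SE 0.09), Cd72 (0.00, SE 0.13), Plcg2 (0.16, SE 0.07) and Btk (-0.13, SE 0.10) had values near 0. Pou2f2, Fcrla, Sox4, Mzb1, Cd37, Siglecg, Lax1 and Myb lay between -0.39 and 0.10.

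Genes of other cell types moved with these results in CLPs. Of a list of 14 pro-B and pre-B genes 6 were lower, among them Ebf1, Vpreb1, Vpreb3, Igll1 and Foxo1, and 0 higher at adjusted p under 0.01, with Igll1 at 492 and 494 CPM in young and 265 and 279 CPM in aged CLPs. The summed level of that list was 3871 to 3901 CPM in young and 3262 to 3752 CPM in aged CLPs, and Dntt and Rag2 in it were not called. Of 10 genes of plasmacytoid dendritic cells 9 were higher, and their sum was 5953 to 5991 CPM in young and 9081 to 12037 CPM in aged CLPs, with aged replicate 1 the higher library. Siglech, a defining marker of those cells, was at 1026 and 1004 CPM in young and 2916 and 2010 CPM in aged CLPs. All 7 genes of basophils and mast cells and all 9 of neutrophils were lower. Those of basophils and mast cells summed to 1701 to 1739 CPM in young and 10.5 to 12.8 CPM in aged CLPs, and those of neutrophils to 1872 to 1909 CPM and 338 to 350 CPM. Erythroid genes (2 of 10 lower) summed to 1965 to 2024 CPM and 207 to 739 CPM, macrophage genes (8 of 10 lower, 1 higher) to 330 to 358 CPM and 288 to 382 CPM, and genes of T, NK and innate lymphoid cells (1 of 13 lower) to 272 to 273 CPM and 274 to 315 CPM. A list of mature B and plasma cell genes held 17, of which 12 were counted, none of them immunoglobulin genes. Of these 12, 5 were higher and 1 lower. Their sum was 3882 to 4021 CPM in young and 8662 to 11161 CPM in aged CLPs. Cd74, which dendritic cells also express, made 2001 and 2066 CPM of it in young and 6183 and 4548 CPM in aged CLPs. H2-Ab1 (595 and 615 CPM in young, 2119 and 1656 CPM in aged), H2-Aa, H2-Eb1 and Xbp1 were also higher in both aged libraries. Jchain was at 80.4 and 87.5 CPM and 49.7 and 88.7 CPM. Among those at lower levels in aged CLPs were Fcmr (67.1 and 79.0 CPM, 8.07 and 13.2 CPM) and Irf4 (30.5 and 29.2 CPM, 15.2 and 13.2 CPM). Megakaryocyte genes (6 of 7 higher) summed to 36.5 to 38.8 CPM and 126 to 197 CPM. The part of these cell types in the members' differences was not tested.

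The age difference in CLPs minus that averaged over the 4 MPP fractions was tested in the same fit, which asks whether a member ages differently in the lymphoid progenitor. It was positive and called for 4 members (background 10.3%) and negative and called for 2 (12.3%). Ly86 (1.68, SE 0.21, adjusted p = 4.95e-06) and Pik3ap1 (1.25, SE 0.17, adjusted p = 1.01e-05) moved in opposite directions, up in CLPs and down in MPP3 for Ly86 and in each of the 4 MPP fractions for Pik3ap1. Lyn (0.60, SE 0.10, adjusted p = 0.000110) was higher in aged CLPs and not called in the MPPs. Sox4 (0.50, SE 0.12, adjusted p = 0.00205) fell in all 4 MPP fractions and not in CLPs. Cd79b (-1.0, SE 0.17, adjusted p = 0.000105) fell in CLPs and was not called in the MPPs, and Cd24a (-0.55, SE 0.07, adjusted p = 5.40e-06) fell more in CLPs than on average in the MPPs. Lax1 did not pass (0.40, SE 0.21, adjusted p = 0.153). Because this contrast averages over the 4 MPP fractions, it does not test the step of Lax1 from MPP4 to CLPs described above. The call of Sox4 ended without either young CLP library or aged CLP replicate 2 (adjusted p up to 0.0391), and the other 5 calls held in all 20 fits that left out 1 library. Without aged CLP replicate 1 the Lyn value was 0.39 in place of 0.60.

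In HSCs and MPPs the same members were followed from the stem cell onward. In HSCs 1 member was higher in aged cells (background 3.74%) and 7 lower (1.66%). MPP1 had 1 (4.71%) and 4 (2.09%), MPP2 had 1 (4.49%) and 5 (3.31%), MPP3 had 1 (8.14%) and 9 (5.79%), and MPP4 had 0 (10.3%) and 8 (6.27%). The one higher member in HSCs and MPP1 to MPP3 was Cd53. Sox4, Cd37 and Pik3ap1 were lower in all 4 MPP fractions, and Tnfrsf13c in MPP1, MPP3 and MPP4. Median log2 fold changes over the members were -0.16, -0.28, -0.67, -0.68 and -0.39 from HSCs to MPP4, and those over all genes were between -0.04 and 0.02. With members at 3 counts or fewer in both libraries of 1 age put at their bound, and those so in both ages left out, the medians were -0.20, -0.26, -0.68, -0.62 and -0.40.

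Genes of other cell types moved in these fractions too. In aged HSCs 7 of 9 neutrophil genes were higher (sum 301 to 322 CPM in young, 704 to 865 CPM in aged), as were 4 of 7 basophil and mast cell genes (1.05 to 2.76 CPM, 12.5 to 19.5 CPM), while 2 of 10 macrophage genes were lower and 0 of the 14 pro-B and pre-B genes were called. In MPP1 3 of 10 macrophage genes were lower and 4 of 12 mature B and plasma cell genes higher. In MPP2 6 of 9 neutrophil genes (2788 to 2904 CPM, 1920 to 1936 CPM), 5 of 10 erythroid and 4 of 10 macrophage genes were lower. In MPP4 6 of 10 macrophage genes were lower (124 CPM, 70.3 to 70.7 CPM), as were 3 of 10 erythroid genes. Of the pro-B and pre-B genes 1 was higher and 0 lower there. Of the 12 mature B and plasma cell genes, 3 were higher and 1 lower in HSCs, 4 and 0 in MPP2 and 4 and 2 in MPP4. Their sums in young and in aged libraries were 1156 to 1170 and 1779 to 2146 CPM in HSCs. They were 589 to 615 and 977 to 978 CPM in MPP2, and 814 to 879 and 1051 to 1088 CPM in MPP4. The part of these cells in the members' differences was not tested.

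**Figure D3:**
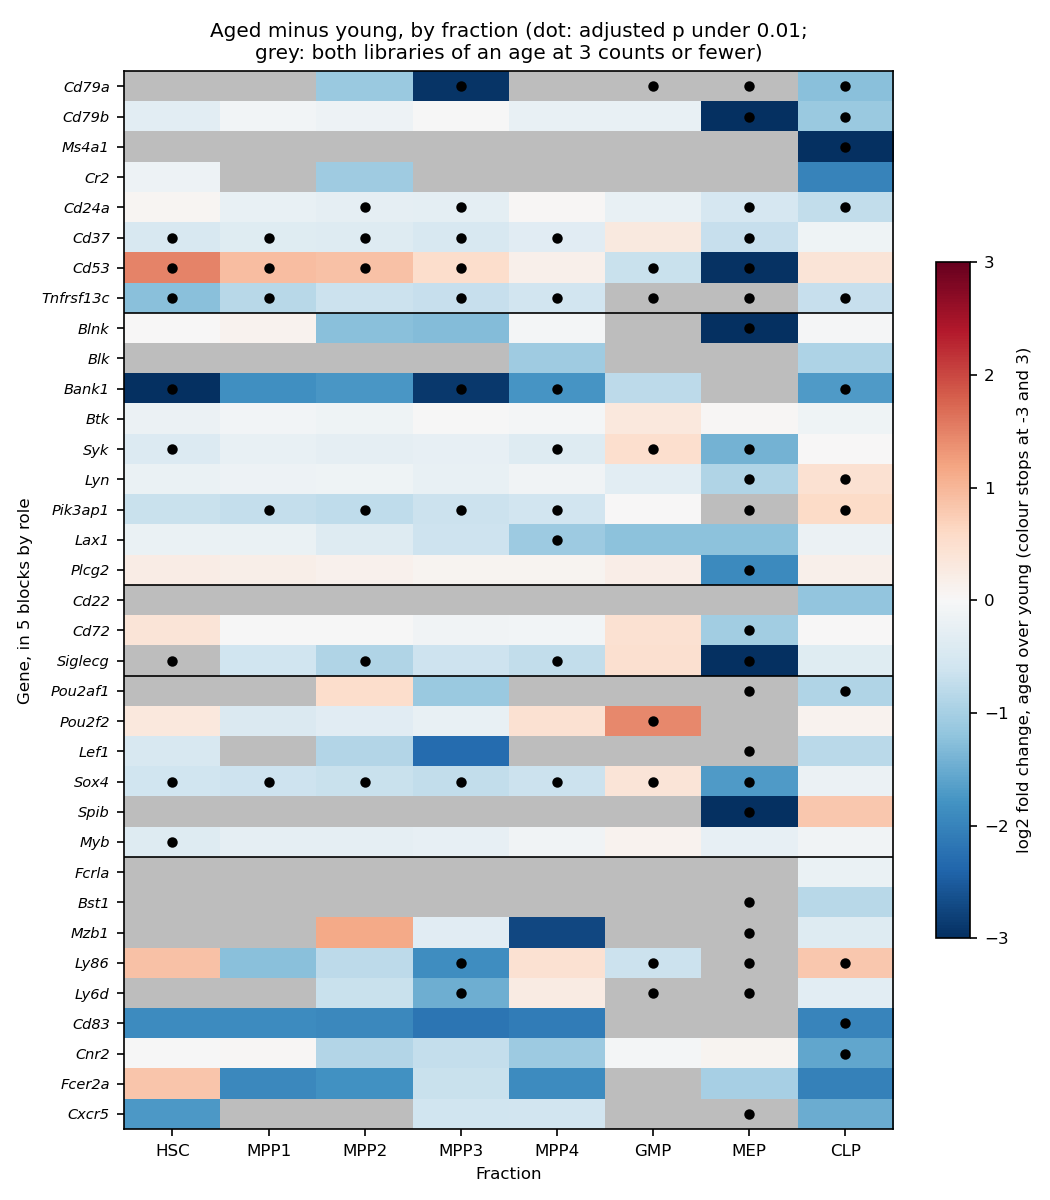
Heat map of the log2 fold change of aged over young (red higher in aged, blue lower, colour stopping at -3 and 3) for the 35 genes in 8 fractions, with a black dot where adjusted p was under 0.01 and grey where both libraries of an age held 3 counts or fewer. Cd53 is red from HSC to MPP3, the Sox4 row is blue from HSC to MPP4, and the MEP column holds 22 dots, all lower in aged cells.

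Cd53, a tetraspanin of leukocytes, had 22.2 and 26.8 CPM in young and 68.5 and 64.7 CPM in aged HSCs (1.48, SE 0.13, adjusted p = 1.91e-07). In MPP1 it had 51.1 and 64.1 CPM in young and 110 and 103 CPM in aged cells (0.93, SE 0.13, adjusted p = 4.08e-05), and in MPP2 96.1 and 98.6 against 178 and 168 CPM (0.88, SE 0.12, adjusted p = 7.03e-05). The step was smaller in MPP3, with 237 and 223 against 339 and 308 CPM (0.54, SE 0.12, adjusted p = 0.00259), and MPP4 was not called (0.15). In GMPs Cd53 fell, from 381 and 388 CPM to 241 and 263 CPM (-0.66, SE 0.12, adjusted p = 0.000295). The MPP3 call ended without either young MPP3 library or aged MPP3 replicate 1 (adjusted p up to 0.0338), and those in HSCs, MPP1, MPP2 and GMPs held with each library left out.

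Sox4, a transcription factor required for early B cell development, fell from 397 and 348 CPM to 232 and 246 CPM in HSCs (-0.59, SE 0.10, adjusted p = 0.000671). In MPP1 it fell from 510 and 499 CPM to 319 and 324 CPM (-0.61, SE 0.10, adjusted p = 0.000421) and in MPP2 from 443 and 462 CPM to 268 and 282 CPM (-0.67, SE 0.10, adjusted p = 0.000198). It fell in MPP3 from 562 and 558 CPM to 336 and 312 CPM (-0.74, SE 0.10, adjusted p = 2.83e-05) and in MPP4 from 713 and 670 CPM to 411 and 419 CPM (-0.65, SE 0.10, adjusted p = 8.21e-05). No aged library reached a young one in any of these 5 fractions. In GMPs it was higher in aged cells, 71.9 and 96.4 against 125 and 103 CPM (0.39, SE 0.11, adjusted p = 0.00869), a call that ended without young or aged GMP replicate 1 (adjusted p up to 0.219) and whose value lay between 0.19 and 0.61 with 1 library left out. The calls in HSCs and MPP1 ended without replicate 1 of either age (adjusted p up to 0.0179 and 0.0125). A long non-coding gene on the opposite strand, Gm26735, shares 54.6% of the annotated exon bases of Sox4, and the use of strand in counting was not stated.

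Tnfrsf13c (chromosome 15, 82221743 to 82224369) was called lower in 7 of the 8 fractions, the most of any member. It was at 28.8 and 26.4 CPM in young and 10.7 and 11.6 CPM in aged HSCs (-1.26, SE 0.16, adjusted p = 2.52e-05). It was at 24.7 and 20.9 against 14.2 and 10.9 CPM in MPP1 (-0.82, SE 0.16, adjusted p = 0.00154), 18.5 and 16.7 against 10.7 and 10.5 CPM in MPP3 (-0.68, SE 0.16, adjusted p = 0.00463) and 26.6 and 29.2 against 17.1 and 18 CPM in MPP4 (-0.58, SE 0.16, adjusted p = 0.00864). In MPP2 it was at 13.2 and 14.0 against 8.73 and 7.99 CPM and was not called (-0.65, SE 0.17, adjusted p = 0.0124). Leaving out any 1 library ended the calls in MPP3 and MPP4 (adjusted p up to 0.0597 and 0.0725), leaving out young replicate 1 or aged replicate 2 that in MPP1 (0.0613), and the HSC call held.

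Pik3ap1, which couples receptors to the lipid kinase PI3K, went from 57.7 and 52.7 CPM to 33.9 and 31.0 CPM in MPP1 (-0.73, SE 0.16, adjusted p = 0.00466) and from 44.1 and 45.3 CPM to 25.6 and 25.3 CPM in MPP2 (-0.76, SE 0.17, adjusted p = 0.00362). It went from 60.8 and 63.4 CPM to 36.7 and 40.2 CPM in MPP3 (-0.64, SE 0.16, adjusted p = 0.00585) and from 93.6 and 92.2 CPM to 59.4 and 58.5 CPM in MPP4 (-0.57, SE 0.16, adjusted p = 0.00957). Ages did not overlap in any of the 4 fractions, but each of these calls ended when any 1 library was left out (adjusted p up to 0.0633).

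Cd37 was called lower in HSCs and all 4 MPP fractions by small steps. It went from 54.2 and 56.8 CPM to 35.2 and 41.4 CPM in HSCs (-0.49, SE 0.09, adjusted p = 0.00149), from 76.4 and 73.8 CPM to 57.8 and 55.6 CPM in MPP1 (-0.37, SE 0.09, adjusted p = 0.00959) and from 95.7 and 92.3 CPM to 66.1 and 72.3 CPM in MPP2 (-0.39, SE 0.09, adjusted p = 0.00512). In MPP3 it went from 111 and 122 CPM to 81.3 and 80.9 CPM (-0.47, SE 0.09, adjusted p = 0.000546) and in MPP4 from 152 and 161 CPM to 117 and 115 CPM (-0.35, SE 0.09, adjusted p = 0.00539). These calls ended without young replicate 2 or aged replicate 1 in HSCs, any 1 library in MPP1 and MPP2, young replicate 2 in MPP3, and young replicate 2 or either aged library in MPP4 (adjusted p up to 0.103).

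Syk, the kinase next to the receptor, went from 99.2 and 94.5 CPM to 73.8 and 67.3 CPM in HSCs (-0.41, SE 0.09, adjusted p = 0.00480) and from 246 and 214 CPM to 164 and 166 CPM in MPP4 (-0.39, SE 0.09, adjusted p = 0.00218). Myb went from 362 and 343 CPM to 284 and 239 CPM in HSCs (-0.39, SE 0.08, adjusted p = 0.00210). The HSC call of Syk ended without any 1 library, that of Myb without either young library or aged replicate 2, and that of Syk in MPP4 without young replicate 1 or either aged library (adjusted p up to 0.0417, 0.0411 and 0.0597).

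Lax1 fell in MPP4, from 96.0 and 96.4 CPM in young to 43.9 and 41.1 CPM in aged libraries (-1.09, SE 0.18, adjusted p = 0.000127), and the call held with each library left out. Bank1 was at 6.67 and 5.77 CPM in young and 0.847 and 0.550 CPM in aged HSCs (-3.11, SE 0.55, adjusted p = 0.000870), at 3.19 and 3.53 against 0.621 and 0.225 CPM in MPP3 (-2.89, SE 0.61, adjusted p = 0.00182) and at 6.21 and 8.82 against 2.74 and 1.37 CPM in MPP4 (-1.78, SE 0.47, adjusted p = 0.00787). Its calls ended without aged HSC replicate 2, without replicate 2 of either age in MPP3 and without any 1 library in MPP4 (adjusted p up to 0.0175, 0.0378 and 0.120). Siglecg held 13 and 16 counts in young and 0 and 0 in aged HSCs, at least 4.95-fold lower (adjusted p = 1.37e-05). It also fell in MPP2, from 5.78 and 6.05 CPM to 2.89 and 3.18 CPM (-0.91, SE 0.20, adjusted p = 0.00393), and in MPP4, from 14.5 and 10.6 CPM to 7.64 and 6.50 CPM (-0.74, SE 0.17, adjusted p = 0.00280). The MPP2 call ended without any 1 library and the MPP4 call without young replicate 1 or aged replicate 2 (adjusted p up to 0.0535 and 0.0878).

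The other calls were in MPP3 and MPP2, 3 of them at low counts. Cd79a had 36 and 32 counts in young and 4 and 5 in aged MPP3 (-2.95, SE 0.57, adjusted p = 0.00112), Ly86 128 and 131 against 34 and 40 (-1.87, SE 0.22, adjusted p = 4.28e-06) and Ly6d 39 and 38 against 11 and 18 (-1.47, SE 0.31, adjusted p = 0.00259). Cd24a fell from 372 and 363 CPM to 306 and 274 CPM in MPP3 (-0.29, SE 0.06, adjusted p = 0.00215) and from 300 and 311 CPM to 247 and 246 CPM in MPP2 (-0.26, SE 0.06, adjusted p = 0.00844). The call of Ly86 held in all 4 fits. That of Cd79a ended without either aged library (adjusted p up to 0.0175), that of Ly6d without either young library or aged replicate 1 (0.0433), and those of Cd24a without 3 of the 4 libraries in MPP3 (0.0636; it held without aged MPP3 replicate 1) and any 1 in MPP2 (0.126). In MPP3, 5 of the 14 pro-B and pre-B genes were lower and 1 higher (sum 401 to 438 CPM in young, 349 to 351 CPM in aged), and 4 of 10 plasmacytoid dendritic cell genes were lower (482 to 494 CPM, 298 to 308 CPM). Macrophage genes (7 of 10 lower) summed to 218 to 238 CPM in young and 79.1 to 85.8 CPM in aged MPP3, neutrophil genes (6 of 9 lower) to 4879 to 5127 CPM and 2258 to 2290 CPM, and erythroid genes (6 of 10 lower) to 2785 to 2838 CPM and 1049 to 1061 CPM. Mature B and plasma cell genes (2 of 12 higher, 3 lower) summed to 799 to 808 CPM and 1031 to 1111 CPM. The part of such cells in the MPP3 differences was not tested. A fit of only the fraction compared ended calls in 3 of the 5 fractions: Syk, Sox4, Cd37, Siglecg and Myb in HSCs (adjusted p of 0.0197 to 0.0982), Cd24a, Cd37, Ly6d and Tnfrsf13c in MPP3 (0.0105 to 0.0481), and Bank1, Syk, Cd37, Siglecg and Tnfrsf13c in MPP4 (0.0118 to 0.0348).

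**Figure D4:**
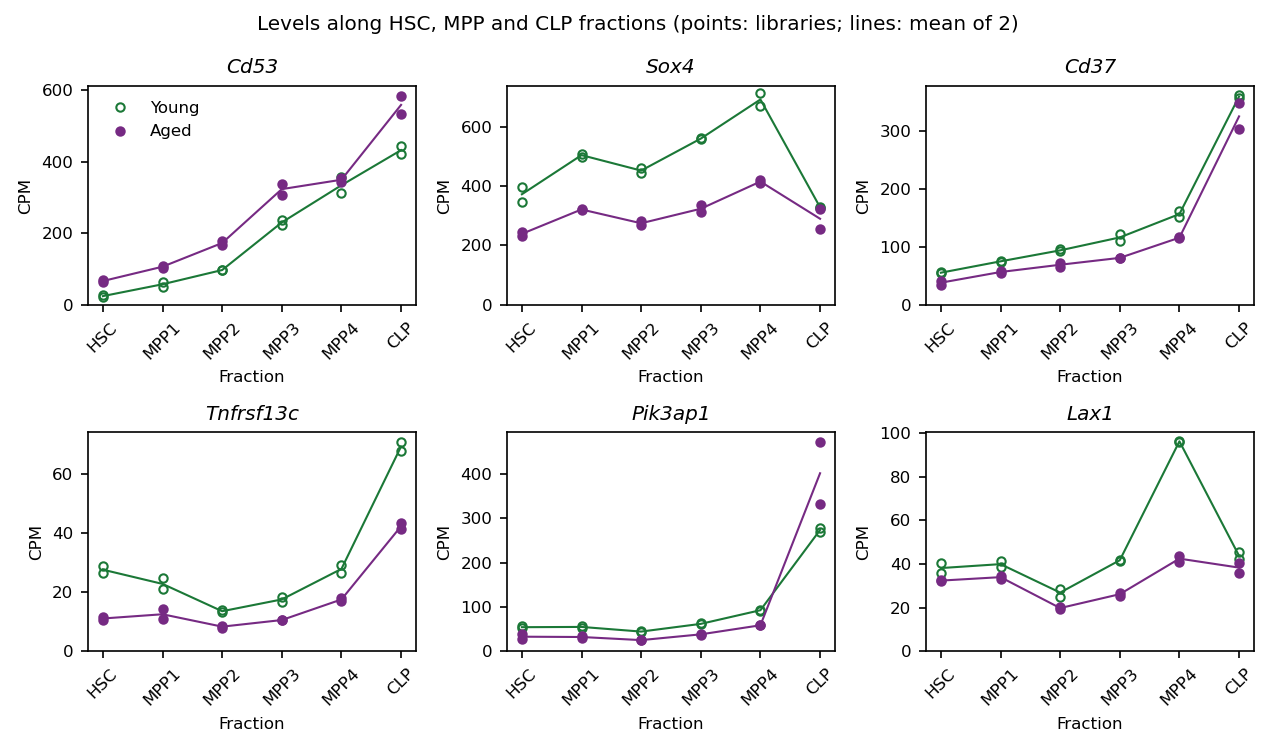
CPM (axes from 0) of 6 genes along HSC, MPP1 to MPP4 and CLP, open green points young libraries, filled purple points aged libraries, lines through the means of 2. Cd53 is higher in aged libraries up to MPP3, Sox4, Cd37 and Tnfrsf13c are lower in aged MPPs, Pik3ap1 crosses between MPP4 and CLP, and the young Lax1 line peaks at 96.2 CPM in MPP4.

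In GMPs 3 members were higher in aged cells (background 9.93%) and 5 lower (8.97%). Pou2f2 had 8.63 and 7.79 CPM in young and 24.5 and 21.7 CPM in aged GMPs (1.44, SE 0.15, adjusted p = 9.98e-07), and Syk 97.3 and 106 against 157 and 141 CPM (0.50, SE 0.09, adjusted p = 0.000260). Both held with each library left out. Ly86 fell from 134 and 135 CPM to 81.2 and 98.4 CPM (-0.64, SE 0.14, adjusted p = 0.00162), a call that ended without aged GMP replicate 1 (0.0465). The other 3 were near 0. Cd79a went from 24 and 22 counts to 0 and 0, at least 5.81-fold lower, Tnfrsf13c from 20 and 15 to 3 and 0, at least 4.42-fold lower, and Ly6d from 10 and 8 to 0 and 0, at least 2.27-fold lower (adjusted p = 0.000682, 0.000116 and 0.00209). Their calls ended without aged GMP replicate 1, aged GMP replicate 2 and either aged library (adjusted p up to 0.0101, 0.0127 and 0.0191). In young GMPs 298 genes, 4 of them members, stood at 0 in one library beside 10 or more counts in the other. A fit of the GMP libraries alone ended the calls of Cd79a, Sox4 and Tnfrsf13c (adjusted p of 0.0108 to 0.117). Erythroid genes (5 of 10 lower) summed to 895 to 1024 CPM in young and 55.0 to 126 CPM in aged GMPs. Macrophage genes (5 of 10 lower) summed to 472 to 498 CPM and 412 to 448 CPM. For pro-B and pre-B genes (2 of 14 lower, 0 higher) the sums were 154 to 157 CPM and 171 to 176 CPM. Basophil and mast cell genes (2 of 7 lower) summed to 913 to 924 CPM and 662 to 671 CPM. Genes of T, NK and innate lymphoid cells (1 of 13 higher, 1 lower) summed to 566 to 595 CPM and 838 to 886 CPM. Those of plasmacytoid dendritic cells (2 of 10 higher, 0 lower) summed to 3048 to 3149 CPM and 2684 to 3122 CPM. Neutrophil genes (4 of 9 lower, 0 higher) summed to 71674 to 71965 CPM in young and 73390 to 74520 CPM in aged GMPs. Mature B and plasma cell genes (1 of 12 higher, 3 lower) summed to 572 to 606 CPM and 467 to 483 CPM. The part of such cells in the GMP differences was not tested.

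MEPs showed the most calls. Of the 35 members 22 were lower in aged MEPs (background 11.7%) and 0 were higher (9.08%), with a median log2 fold change of -3.07, or -2.24 over 30 members with those near 0 put at their bound, against 0 over all genes. The young MEP libraries held genes of B cell precursors that the aged ones did not. MEPs give rise to red cells and platelets, and their erythroid genes were high in both ages, with a sum of 12295 to 12450 CPM in young and 11588 to 12187 CPM in aged libraries. These libraries stood apart in one more way: 461 genes, 2 of them members, were at 0 in one young MEP library beside 10 or more counts in the other, against 51 to 298 in the other groups.

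Cd79a had 836 and 801 counts (51.1 and 55.1 CPM) in young and 0 and 0 in aged MEPs, at least 206-fold lower (adjusted p = 7.24e-11). Pik3ap1 had 199 and 249 counts against 0 and 0, at least 56.9-fold lower (adjusted p = 1.45e-10), and Mzb1 195 and 145 against 0 and 0, at least 42.6-fold lower (adjusted p = 2.96e-08). Both young libraries carried these genes at similar levels, so the difference did not rest on 1 library. Lef1 had 369 and 552 counts against 0 and 2, at least 118-fold lower (adjusted p = 1.83e-07), and Pou2af1 459 and 360 against 2 and 0, at least 103-fold lower (adjusted p = 1.03e-10). Ly6d had 52 and 70 counts against 0 and 0, at least 15.5-fold lower, Ly86 46 and 28, at least 9.21-fold lower, and Tnfrsf13c 37 and 34, at least 8.94-fold lower (adjusted p = 4.23e-07, 7.68e-07 and 7.51e-08). Annotated exons of Mzb1 share 57.2% of their bases with a neighbouring gene on the same strand, so its counts could be split between the pair.

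Blnk fell from 34.5 and 34.6 CPM to 1.16 and 2.23 CPM in MEPs (-4.33, SE 0.30), Cd79b from 20.4 and 26.5 CPM to 0.801 and 0 CPM (-5.89, SE 0.33, or -11.40 without aged MEP replicate 1), Spib from 8.44 and 7.22 CPM to 0.623 and 0.907 CPM (-3.33, SE 0.52) and Cd53 from 18.1 and 18.1 CPM to 1.42 and 3.13 CPM (-2.97, SE 0.20). Bst1, with 33 and 30 counts against 0 and 0, was at least 7.93-fold lower, and Cxcr5, with 15 and 25 against 0 and 0, at least 5.12-fold lower. Among the signalling genes common to blood cells, Plcg2 fell from 33.7 and 35.5 CPM to 9.52 and 8.99 CPM (-1.90, SE 0.09), Syk from 47.8 and 49.8 CPM to 18.1 and 18.5 CPM (-1.41) and Lyn from 54.2 and 52.0 CPM to 27.4 and 28.9 CPM (-0.91). Siglecg (-3.09), Sox4 (-1.69), Cd72 (-1.04), Cd37 (-0.69) and Cd24a (-0.49) completed the 22. The calls of Cd72, Bst1 and Cxcr5 ended without at least 1 library: young MEP replicate 2 for Cd72 (adjusted p = 0.0283), either aged library for Bst1 (up to 0.0200), and young replicate 2 or either aged library for Cxcr5 (up to 0.0457). Spib lost its call under DESeq2 (adjusted p = 0.0388). The other calls held in every leave-one-out fit. A fit of the MEP libraries alone ended the calls of Cd72, Bst1, Cxcr5, Ly86, Siglecg and Tnfrsf13c (adjusted p of 0.0101 to 0.0901). Btk (105 and 103 against 107 and 106 CPM) and Cnr2 (97.8 and 96.1 against 91.2 and 112 CPM) were not called (0.04, SE 0.10 and 0.07, SE 0.23).

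**Figure D5:**
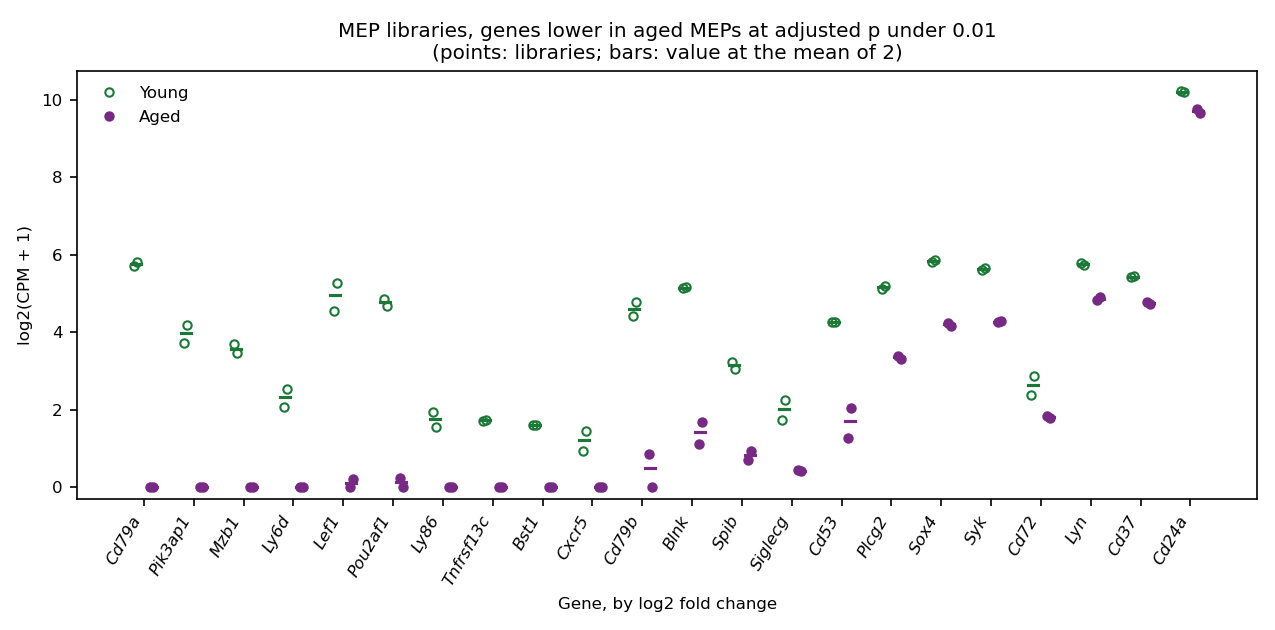
Value of log2(CPM + 1) in each MEP library for the 22 genes lower in aged MEPs, ordered by log2 fold change, open green points young, filled purple points aged, bars at the mean of 2. From Cd79a to Cxcr5 the aged points lie at or near 0, while Plcg2, Sox4, Syk, Lyn, Cd37 and Cd24a remain detected in both ages.

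Young MEPs did not carry the members in the proportions of young CLPs. The young MEP mean was 5.63% of the young CLP mean for Cd79a, 6.33% for Cd79b, 8.08% for Blnk, 10.3% for Pou2af1 and 17.4% for Lef1, but 1.78% for Spib, 0.352% for Ly6d, 0.0575% for Blk and 0% for Bank1, Cd22, Cr2 and Pou2f2. Of the 14 pro-B and pre-B genes 12 were lower in aged MEPs and 0 higher. Their sum was 434 to 445 CPM in young and 203 to 205 CPM in aged MEPs, of which Bcl11a made 191 to 205 CPM in each library. Igll1 had 42.1 and 38.4 CPM, Dntt 52.8 and 53.1 CPM and Ebf1 12.2 and 12.4 CPM in young MEPs and each had 0 in both aged libraries. Of the 8 sorting markers 5 were lower in aged MEPs, namely Slamf1, Cd48, Flt3, Il7r and Fcgr3. The MEP gate was to exclude cells stained for the interleukin-7 receptor protein. RNA of its gene, Il7r, had 156 and 234 counts (9.54 and 16.1 CPM) in young and 2 and 5 counts in aged MEPs. These are RNA values, and the protein was not measured in these libraries. Of 10 genes of plasmacytoid dendritic cells 3 were lower and 1 higher. They summed to 104 to 108 CPM in young and 105 to 106 CPM in aged MEPs, of which Bst2 and Tcf4 made most. Bst2 was higher, at 39.6 and 34.6 CPM in young and 58.7 and 64.3 CPM in aged MEPs, Irf8 was lower, at 18.7 and 26.1 CPM and 1.78 and 2.39 CPM, and Siglech was at 1.53 and 0 CPM in young MEPs. Summed macrophage genes were at 16.8 to 17.5 CPM in young and 1.16 to 2.72 CPM in aged MEPs, neutrophil genes at 242 to 267 CPM and 27.0 to 116 CPM, genes of T, NK and innate lymphoid cells at 37.7 to 46.5 CPM and 19.3 to 26.2 CPM, and mature B and plasma cell genes at 382 to 389 CPM and 181 to 253 CPM. The part of such cells in the MEP differences was not tested.

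The wider pathway was read from a list of 67 further genes of B cell receptor signalling, all of them tested. In aged CLPs 9 were higher (background 5.71% of all genes) and 5 lower (4.73%). Among those lower were Cd81, Rasgrp1, Dok3 and Foxo1, and among those higher were Fyn, Fgr, Ptpn6, Dapp1, Prkcd, Nfatc2, Nfkb1 and Lcp2. Fyn, a kinase of the same family as Lyn, differed by 1.11 (SE 0.13) and Fgr, another of that family, by 1.05 (SE 0.24). Foxo1 is also on the list of pro-B and pre-B genes. In HSCs 1 was higher (3.74%) and 4 lower (1.66%). MPP1 had 0 (4.71%) and 3 (2.09%), MPP2 had 0 (4.49%) and 2 (3.31%), MPP3 had 0 (8.14%) and 7 (5.79%), and MPP4 had 2 (10.3%) and 6 (6.27%). GMPs had 7 (9.93%) and 5 (8.97%), and MEPs had 3 (9.08%) and 21 (11.7%). From young MPP4 to young CLPs 28 of the 67 were higher (21.3%) and 12 lower (20.5%).

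Over the 8 age comparisons 29 of the 35 members were called at least once, beside 46.2% of all 14154 genes, and 6 never: Blk, Cd22, Fcrla, Cr2, Btk and Fcer2a. Of these Btk was at 59.4 CPM or more in all 32 libraries, and the other 5 had their highest mean in young CLPs, where their age differences had SEs of 0.26 to 0.89. In 6 of 35 members, beside 9.5% of all genes, calls went both ways between fractions: Cd53 (4 higher, 2 lower), Sox4 (1 and 6), Pik3ap1 (1 and 5), Syk (1 and 3), Ly86 (1 and 3) and Lyn (1 and 1).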

How the data were processed

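RNA of 32 sorted bone marrow libraries (8 fractions, 2 ages, 2 libraries each) was amplified with a kit for low input and sequenced as single reads. The authors aligned reads to mm10 (the submitters' processing notes name TopHat2 2.0.13, Bowtie2 2.1.0, StringTie and DESeq2) and deposited raw read counts per gene, without molecular identifiers and with no strand setting stated. The authors' normalized values and comparison tables (fold changes and p-values) were deposited too and were not used here. All 24421 genes carried a count column for each library, with totals of 11237384 to 17723245.

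Counts were analysed with edgeR 4.0.16 in R 4.3.3: filterByExpr over 16 groups, TMM factors, 1 mean per group (16 residual degrees of freedom) and the two-sided quasi-likelihood F-test in 13 contrasts, with Benjamini-Hochberg adjustment within each contrast and a threshold of 0.01. Code was tested on simulated data. CPM are counts scaled to a common library total. Folds against groups with 3 counts or fewer in both libraries are lower bounds set at 3 counts per library. Per-length levels use the union of GENCODE exons. Promoters came from RefSeq on GRCm38.p6. Alternatives were DESeq2 1.42.0, DESeq2 size factors, no filter, a replicate block, a fit of only the fractions compared, a threshold of 0.05, leaving out each library and, chosen after seeing the data, leaving out the MEP libraries. Members and lists were chosen with earlier results of these data known. Named were all members called in each age contrast, with full statistics for up to 8 with the largest change, and the 5 most abundant in young CLPs. Exons of 11 members overlap another gene's, among them Cd72 with Tesk1 on the opposite strand (41.6% of its exon bases), and Cd24a has near-identical pseudogenes, so these counts are less certain. Some genes of the lists are not reported here by name.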

Additional observations from a re-analysis of the deposited data

Results flagged for a closer look

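In 6 genes the age difference in CLPs differed from that averaged over the 4 MPP fractions by the test of that difference in the edgeR quasi-likelihood fit. Of all genes 10.3% were called higher and 12.3% lower by the same test, against 4 and 2 of the 35 members, so the share called is not a result about the members. It was higher in CLPs by 1.68 on the log2 scale for Ly86 (adjusted p = 4.95e-06), 1.25 for Pik3ap1 (adjusted p = 1.01e-05), 0.60 for Lyn (adjusted p = 0.000110) and 0.50 for Sox4 (adjusted p = 0.00205). It was lower in CLPs for Cd79b (-1.0, adjusted p = 0.000105) and Cd24a (-0.55, adjusted p = 5.40e-06). The Sox4 value was between 0.35 and 0.63 with 1 library left out.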

How the results depend on the processing

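No called value changed direction under any alternative that tested it, and values not called were not followed in this way. DESeq2 size factors in edgeR kept all 178 single calls, no filter on low counts 177, the replicate block 174 and DESeq2 170. The fit of only the fractions compared kept 138 of 176 (between fractions it ended those of Cd79a, Pou2af1, Pou2f2, Siglecg and Plcg2 for young MPP4 against MPP3, of Myb for young and of Cnr2 and Myb for aged CLPs against MPP4), and leaving out the MEP libraries, chosen after seeing the data, kept 154 of 156. That setting ended the calls of Sox4 in GMPs, as no filter did, and of Cnr2 between young MPP4 and MPP3. In the number of members called, the fit of only the fractions compared gave 3 where 8 were reported for HSCs, 8 (5) for MPP1, 12 (6) for MPP2, 4 (8) for MPP4, 4 (8) for GMPs and 7 (12) for CLPs. A threshold of 0.05 gave 12 for MPP2, 16 (10) for MPP3, 13 for MPP4 and 16 for GMPs. DESeq2 gave 8 for MPP1, 13 for MPP2, 17 for MPP3 and 13 for GMPs. The cause was not tested, except that fewer samples entered the first of these fits.

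Libraries share replicate numbers, but with 2 numbers and correlations of the deviations between ages of -0.06 to 0.07 per fraction the numbers were not taken as pairs. The replicate block gave 10 members in CLPs and 6 in MPP4, ending the calls of Pik3ap1 and Cd83 in CLPs and of Bank1 and Pik3ap1 in MPP4.

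With each library left out in turn, calls numbered 5 to 6 for HSCs, 1 to 3 for MPP1, 2 for MPP2, 3 to 5 for MPP3, 2 to 5 for MPP4, 4 to 10 for GMPs, 20 to 22 for MEPs and 3 to 9 for CLPs. They numbered 16 for young MPP4 against HSCs, 3 to 7 against MPP3, 30 to 33 for young and 25 to 28 for aged CLPs against MPP4, and 5 to 7 for the CLP age difference against the MPPs. Depth limits members under about 3 counts, where only bounds are given.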
